A study of Jatropha curcas with 31 samples.

Results

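In ripening seeds of Jatropha curcas, an oil plant of the spurge family, 150 contigs had a signal that was high in yellow and brown fruit and lower both before and after. A contig is a transcript assembled from sequencing reads of a pool of the seed stages. The members were chosen by their seed signals: each contig was represented by its brightest probe on average across the 21 seed arrays in the deposited log2 table, and a score was taken as the smaller of the means of stages IV and V minus the largest of the means of stages I, II, III and VI. Of 19838 contigs, 2217 had a score above 0 and 198 had a score of at least 1. The 150 highest of these are described here, and 48 that passed were left out. The hump itself is a description and was not tested.

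Seeds came from 1 selected plant in Kamisse, Ethiopia. They were sorted into 6 stages by the colour of the epicarp and the endocarp, which are layers of the fruit. The stages were green-white (stage I), green-half in the sample labels and green-brown in the methods (stage II), green-black (stage III), yellow (stage IV), brown (stage V) and dry (stage VI). There were 3 arrays of green-white, green-black and yellow seed, and 4 arrays of the others. Leaves labelled toxic and leaves labelled non-toxic had 5 arrays each, and the age and accession of the leaf plants are not given in the labels. The methods describe the arrays of a seed stage as biological replicates, and all seeds share 1 mother plant. Some leaf arrays carry similar sample codes, so it is not certain that each came from a separate plant. Seed codes also repeat the letters A and B within a stage, and some codes of brown and dry seed carry marks that the other stages lack. The labels do not explain these codes, so it is not certain that the arrays of a seed stage are independent or were collected alike. The p-values below measure the spread between seed samples of 1 plant and between leaf samples, and neither set is certain to be independent. Toxicity of the leaves cannot be told apart from the plants they came from.

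In an oilseed, the middle of maturation is when storage oil and protein are laid down, and it is followed by loss of water and a quiescent dry embryo. Abscisic acid is the hormone known for its role in storage and in tolerance of drying, while cytokinins are known for cell division and early growth. Some late transcripts stay stored in dry seeds of many species, and others are lost as the seed dries. Whole seeds were used, so more cells of a type and more RNA per cell cannot be told apart.

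Among the members, primers that the study designed for quantitative PCR were found here for 3 contigs. The study's quantitative PCR figure also names the member contig14114, whose primers were not found here. These primers are shown because they tie the contig numbers to transcript sequence. They are written 5′ to 3′ in lower case, with nothing marked in capitals.
contig04225, one primer: caagcgagaagctaggagga
contig04225, other primer: cgagggttaaaccgcaaata
contig09239, one primer: aacgagcttaggcgaatcag
contig09239, other primer: cggaacctctgtgttctcatc
contig03624, one primer: tgctctccatcatctctgga
contig03624, other primer: ggtttttggccttctggagt

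Contig04225 and contig09239 have no annotation in the tables used here, and contig03624 is annotated as a cytokinin dehydrogenase. All 3 had the hump. Contig04225 had a mean of 7.33 ± 0.35 at stage III, 9.84 ± 0.04 at stage IV, 10.37 ± 0.17 at stage V and 5.61 ± 0.20 at stage VI, where the error is the SD over the 3 or 4 arrays of the stage. Contig09239 had 6.87 ± 0.25 at stage III, 8.85 ± 0.09 at stage IV, 9.29 ± 0.22 at stage V and 5.24 ± 0.33 at stage VI. Contig03624 is described with the hormone genes below.

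The labelled tissues were checked against marker contigs. All 7 seed markers (oleosins, an 11S globulin, vicilins and late embryogenesis abundant proteins) were higher at stages IV and V than in leaf. Of 6 leaf markers, 1 was above leaf at both stages. It was contig04560, annotated as Rubisco, with means of 11.42 at stage IV, 10.68 at stage V, 5.39 in toxic leaf and 5.20 in non-toxic leaf. Between 47.9% and 69.6% of the probe spots of an array were well above the local background. The arrays lay on 4 slides, of which slides 1 to 3 held 1 array of every group and slide 4 held the fourth array of 3 stages and 4 leaf arrays. In the scanner intensities the members were brighter on slide 4 than on the others, with a median difference of 0.54 at stage II, 0.20 at stage V and 0.62 at stage VI on the log2 scale. In the deposited table these differences were 0.08, -0.25 and 0.18. Stage I replicate 3 was the highest of the 3 stage I arrays in 96 of the 150 members, beside 29.2% of all contigs, with a median difference of 0.30. The seed markers were also higher on that array, by a median of 0.75, and their part in the stage I values was not tested. Without that array all 150 members kept a score of at least 1.

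The hump rose from a low baseline. The median over the 150 contigs was 5.94 at stage I, 5.82 at stage II, 6.98 at stage III, 9.12 at stage IV, 9.43 at stage V and 6.36 at stage VI on the log2 scale. Over all 19838 contigs the medians lay between 7.79 at stage VI and 7.87 at stages III and IV. The scores of the members ran from 1.12 to 3.82 with a median of 1.51, and 34 reached 2 and 8 reached 3. In 9 members no array of the highest among stages I, II, III and VI was well above background, so their rise is a bound. In scanner intensities the largest bound was 8.94-fold, in contig12176, and it was 1.77-fold in contig18299 and 1.69-fold in contig08019. It was 0.659-fold in contig12740 and lower in contig07526, so neither has a rise above a detected level. The rest lay between 2.28-fold and 7.03-fold. The 7 arrays of stages IV and V lay above the other 14 seed arrays in 145 of the 150 members, beside 4.29% of all contigs. Nothing is read from this count because the rule used the same signals.

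**Figure D1:**
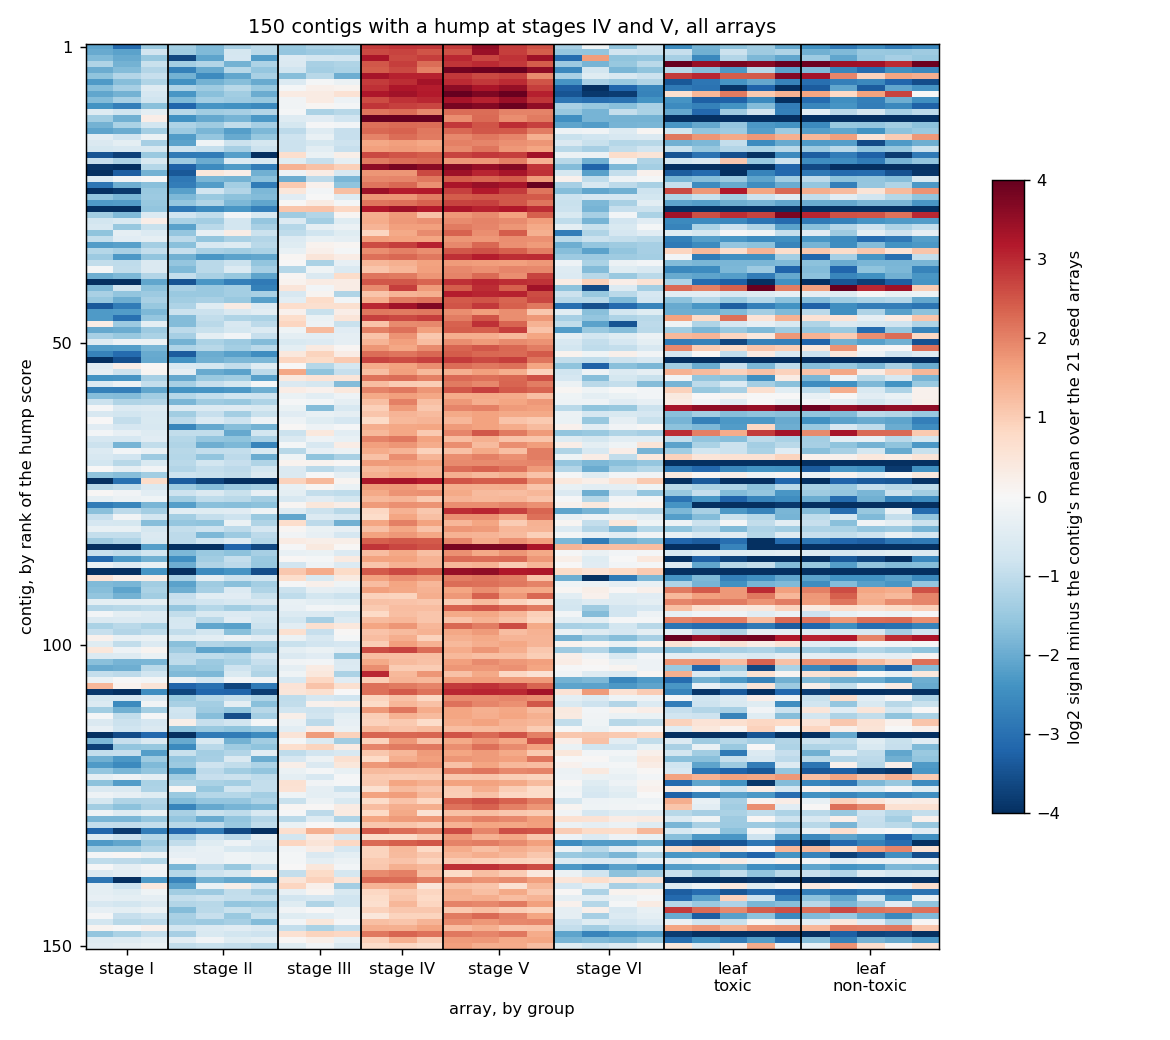
Log2 signal of the 150 contigs (rows, by rank of the hump score) on each of the 31 arrays (columns, by group), minus the mean of the contig over the 21 seed arrays, with red above and blue below that mean and the colour at its limit from a difference of 4 on. The columns of stages IV and V are red, while the leaf columns are blue for most contigs and red for a smaller number.

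The flanks of the hump differed among the members. The highest of the 4 flanking stages was stage III in 80 members, stage VI in 42, stage I in 23 and stage II in 5. In 61 members stage III was already more than 1 above the mean of stages I and II, and in 89 it was within 1 of it. In dry seed, 95 members were within 1 of the mean of stages I and II, 41 were more than 1 above it and 14 were more than 1 below it. The step from stage III to stage IV ran from 1.12 to 5.05 with a median of 1.85, and the step from stage V to stage VI ran from -7.14 to -1.24 with a median of -2.49. The median SD between arrays was 0.16 at stage IV and 0.20 at stage V, and between 0.29 and 0.33 at the other 4 stages. Over all contigs it was 0.21 at stage IV and 0.18 at stage V, and between 0.17 at stage I and 0.32 at stage III at the others.

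At the limit of the choice the values changed little. The last 3 members were contig05525, contig02111 and contig03897, with scores of 1.129, 1.124 and 1.123. The first 3 contigs left out were contig03234, contig01120 and contig07937, with scores of 1.120, 1.111 and 1.109. Contig01120 is annotated as a protein of the SAUR family, small proteins known for their induction by auxin.

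The largest score belonged to contig17657, a contig of 271 bases with no annotation in the tables used here. Its signal was 4.76, 3.77 and 5.38 at stage I, 5.46, 5.10, 5.55 and 5.78 at stage II, and 5.34, 5.58 and 5.61 at stage III. It was 9.65, 9.76 and 9.72 at stage IV, 9.66, 10.40, 9.66 and 9.41 at stage V, and 5.52, 6.68, 5.29 and 6.05 at stage VI. The arrays of the hump and the other 14 did not overlap, and the 10 leaf arrays, between 4.01 and 5.43, were all below the hump.

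Contig15202, of 1114 bases and also without annotation, had the same score of 3.82 after rounding. It was 8.76, 8.82 and 8.64 at stage IV and 8.65, 9.55, 8.89 and 8.54 at stage V. Its other 14 seed arrays lay between 3.96 and 5.40 and did not overlap the hump, and none of the 3 stage III arrays was well above background. Another probe of this contig in the same direction, labelled with position 500, had a score of 3.73, and a further one, labelled with position 0, had 0.48.

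Contig11055, with a score of 3.58, had 1 dry seed array far from the rest. It was 9.03, 8.43 and 8.54 at stage IV and 8.78, 8.44, 8.67 and 9.16 at stage V. At stage VI it was 2.71, 7.46, 4.17 and 4.24, so replicate 2 was far above the other 3. Its score from the single arrays of 1 slide was 0.96 on slide 2, which held that array, 3.54 on slide 1 and 3.42 on slide 3. Contig11055 was well above background on no stage I array and on 1 array each of stages II, III and VI.

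Contig12176, with a score of 3.49, had a higher mean at stage V than at stage IV, a difference that did not pass the test given further down. It was 8.09, 8.32 and 7.69 at stage IV and 9.55, 9.61, 9.71 and 9.26 at stage V. No array of stages I, II and III had it well above background, so its rise from stage III to stage IV is a bound of at least 8.94-fold in the scanner intensities, with means of 7.86 at stage IV and 3.63 at stage III. Its probe reads the antisense direction of the contig as assembled, and its other probes did not share 1 pattern. The brightest sense probe had a score of -0.94, the other sense probe 1.42 and the other antisense probe -1.24.

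Contig00218, contig13514, contig16269 and contig13516 completed the unannotated contigs among the 10 highest scores, with scores of 3.12, 3.02, 2.86 and 2.84. All 4 were already raised at stage III, with means of 7.18, 7.85, 8.57 and 8.08, and stood between 10.30 and 11.86 at stages IV and V. Contig13514, contig16269 and contig13516 were lower in dry seed than at any earlier stage, with means of 4.29, 4.72 and 5.27 at stage VI. Contig16269 alone of these 4 was bright in leaf, where its 10 arrays lay between 8.16 and 10.86.

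**Figure D2:**
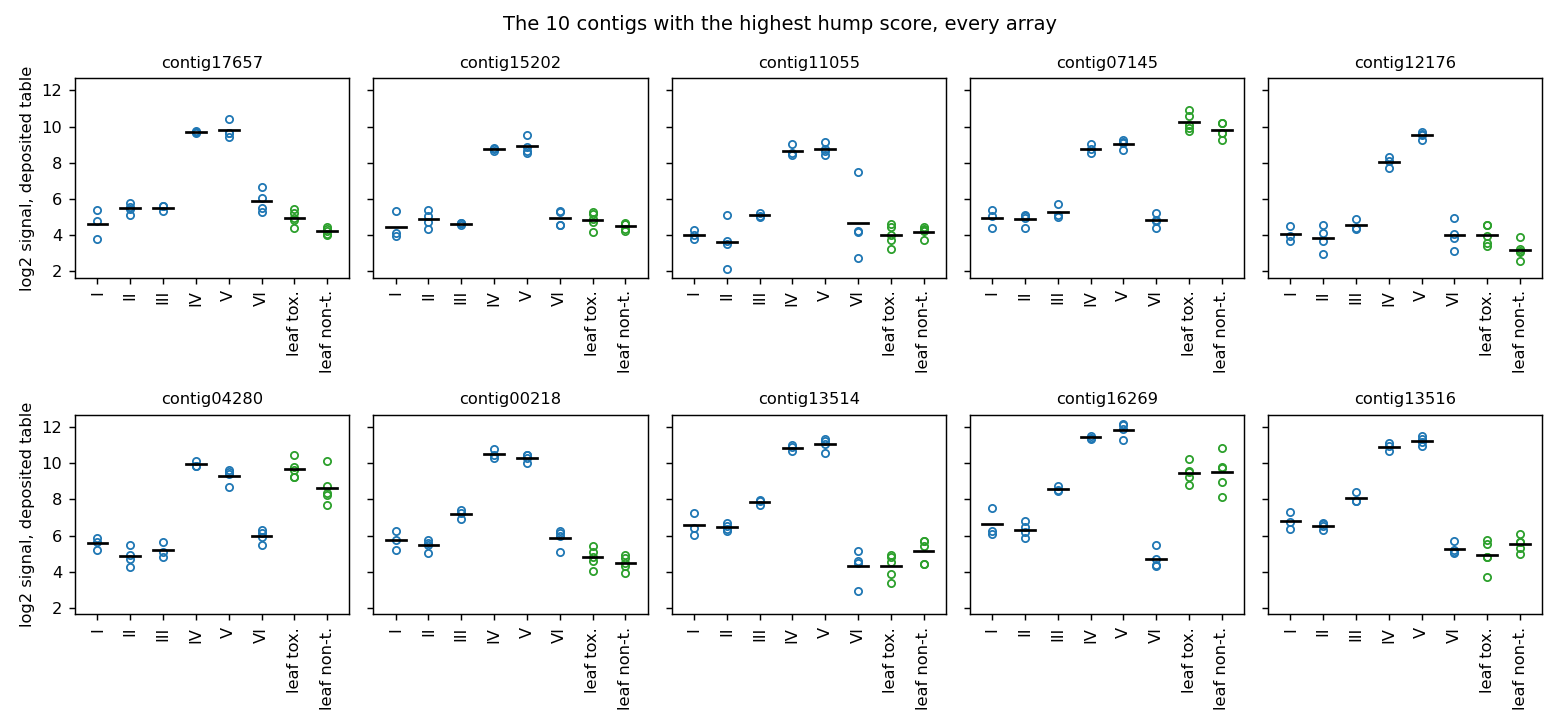
Log2 signal in the deposited table of the 10 contigs with the highest hump score, with each array as a circle (seed stages in blue, leaf in green) and each group mean as a black line. In all 10 panels the circles of stages IV and V lie above those of the other seed stages, and contig07145, contig04280 and contig16269 are also high in leaf, with means of 10.03, 9.15 and 9.48.

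Of the 150 members, 26 (17.3%) have an annotation in the supplementary tables or through a RefSeq symbol, beside 18% of all contigs. The annotation tables were read only in part, so the other members are unnamed here and not without a gene. The enzyme names come from automatic assignment by sequence similarity. They are described below in an order set by hand, with related roles together, and no group of them was tested. The contigs outside the naming rule that appear below were chosen after their values were seen.

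Contig07145 is annotated as fructose-bisphosphate aldolase, which splits or joins sugar phosphates in glycolysis and in the carbon cycle of photosynthesis. It was 5.70, 4.99 and 5.09 at stage III, 8.77, 9.05 and 8.52 at stage IV, 9.13, 9.26, 9.11 and 8.69 at stage V and 4.84, 4.41, 4.77 and 5.21 at stage VI. In leaf it was 10.59, 9.78, 10.08, 9.91 and 10.93 in the toxic group and 10.19, 9.67, 9.63, 9.26 and 10.21 in the non-toxic group. The leaf arrays reached or exceeded the highest seed array, and no leaf array overlapped the flanking seed stages.

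Contig02977, the second aldolase contig, had the same form. It was 4.96, 5.23 and 6.48 at stage III, 7.84, 8.11 and 7.56 at stage IV, 8.12, 8.28, 8.00 and 8.77 at stage V and 5.78, 5.06, 6.29 and 5.14 at stage VI. Its leaf mean was 9.26 ± 0.47 (SD, n = 10). Both aldolase contigs were therefore higher in leaf than at the hump, by 1.11 for contig07145 and 1.20 for contig02977 on the log2 scale. The seed and leaf columns had different distributions and may have been normalized apart.

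Contig03391, a 1,4-alpha-glucan branching enzyme, which makes the branches of starch, had a small hump with little spread. It was 9.39, 9.09 and 9.23 at stage III, 10.52, 10.62 and 10.38 at stage IV, 10.48, 10.43, 10.36 and 10.35 at stage V and 8.95, 8.89, 8.92 and 9.20 at stage VI, and its leaf mean was 9.34 ± 0.23. Contig07078, annotated as beta-mannosidase and amygdalin beta-glucosidase, enzymes that release sugars from glycosides, was 12.17, 12.15 and 12.70 at stage IV and 12.99, 13.63, 12.99 and 13.56 at stage V. Its leaf arrays, between 12.54 and 13.64, overlapped the hump.

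Contig04280, annotated as an alkane and unspecific monooxygenase, enzymes that insert oxygen into their substrate, was 5.08, 5.67 and 4.84 at stage III, 10.10, 9.86 and 9.86 at stage IV, 9.63, 9.43, 9.53 and 8.69 at stage V and 5.48, 6.31, 6.16 and 5.92 at stage VI. No stage III array had it well above background. In leaf it was 9.60, 9.80, 9.22, 9.23 and 10.45 in the toxic group and 10.11, 8.73, 7.71, 8.38 and 8.25 in the non-toxic group. Leaf and hump overlapped, and leaf lay 0.48 below the hump on average.

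Contig04356 and contig07944 are both annotated as 4-hydroxyphenylacetaldehyde oxime monooxygenase, a step in making cyanogenic glucosides in sorghum. Contig04356 was 9.13, 9.32 and 9.28 at stage III, 11.49, 11.47 and 11.32 at stage IV, 11.92, 12.04, 11.93 and 11.89 at stage V and 9.33, 9.93, 9.27 and 9.57 at stage VI. Contig07944 was 7.92, 8.28 and 7.09 at stage III, 10.26, 10.28 and 10.13 at stage IV, 9.52, 9.42, 9.41 and 8.78 at stage V and 7.40, 7.21, 7.51 and 8.03 at stage VI. Both were raised at stage III and kept a middle level in dry seed, and they differed in leaf, where contig07944 was not well above background on any array and contig04356 was on 7. At stage I contig07944 was 1.82, 4.01 and 7.72, so its 3 arrays disagreed widely.

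Contig03169, a primary-amine oxidase, which breaks down amines with release of hydrogen peroxide, had its peak at stage V. It was 4.96, 4.59 and 4.36 at stage III, 6.28, 6.85 and 6.55 at stage IV, 8.42, 8.52, 8.19 and 7.78 at stage V and 3.34, 3.61, 4.31 and 4.29 at stage VI. No array of stages I and III and only 1 of stage VI had it well above background. Contig00104, an NADP-dependent alkenal double bond reductase, which acts on reactive aldehydes, had means of 8.70 ± 0.54 at stage III, 10.46 ± 0.07 at stage IV, 9.97 ± 0.17 at stage V and 8.73 ± 0.20 at stage VI.

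Contig03624, a cytokinin dehydrogenase with the RefSeq symbol CKX5, belongs to the enzymes that break down cytokinins. It was 5.85, 5.80 and 6.47 at stage I, 8.83, 8.70 and 8.97 at stage III, 10.52, 10.64 and 10.31 at stage IV, 11.04, 11.27, 10.99 and 10.87 at stage V and 8.63, 8.37, 8.51 and 8.43 at stage VI. Seed stages were tight, but leaf was not, with an SD of 1.04 over its 10 arrays around a mean of 8.25.

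Contig01208, annotated as the ninja-family protein AFP3, belongs to a family known in Arabidopsis to bind a regulator of abscisic acid responses. It was 8.62, 8.81 and 9.59 at stage I, 11.51, 11.87 and 11.69 at stage III, 13.11, 13.25 and 13.22 at stage IV, 13.29, 13.29, 13.37 and 13.26 at stage V and 11.60, 11.83, 11.53 and 11.57 at stage VI. A pair of further probes of this contig in the same direction had scores of 1.47 and 1.24. Such probes of the other highest annotated contigs are given further down, and most scored lower. Contig04581, with the RefSeq symbol ET2, a name used in Arabidopsis for a regulator of gibberellin responses, was 9.59, 9.49 and 9.78 at stage III, 11.43, 11.34 and 11.47 at stage IV, 11.54, 11.36, 11.51 and 10.87 at stage V and 7.76, 7.71, 7.87 and 8.05 at stage VI. It was not well above background on any leaf array.

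Contig07045, an inorganic diphosphatase, which splits the diphosphate set free by many syntheses, was 9.61, 9.93 and 9.81 at stage III, 11.50, 11.78 and 11.45 at stage IV, 12.51, 12.51, 12.56 and 12.48 at stage V and 10.21, 10.08, 10.45 and 10.40 at stage VI. Contig18737, a CTP synthase, had means of 8.15 ± 0.15 at stage III, 9.37 ± 0.12 at stage IV, 10.07 ± 0.24 at stage V and 7.93 ± 0.13 at stage VI. Contig01665, with the RefSeq symbol MSH6, a protein of DNA mismatch repair, had means of 6.53 ± 0.09 at stage III, 9.09 ± 0.34 at stage IV, 8.76 ± 0.14 at stage V and 7.47 ± 0.21 at stage VI.

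Several annotations occurred in pairs. The glutamine amidotransferase-like contig00880 and contig01876 were both lower at stage II than at stages I and III. Contig00880 had means of 8.90, 7.03 and 8.43 at stages I, II and III, and contig01876 had 10.66, 6.84 and 10.78. At stages IV and V contig00880 had 11.30 and 10.22 and contig01876 had 12.08 and 12.68. The carboxylesterases contig02711 and contig02712, enzymes that split esters, had different flanks. In the first, all arrays of stages I, II and III were too dim to stand well above background, while the second was on all 3 arrays of stage III, with a mean of 7.85 there and 9.74 at stage IV.

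The protein-serine/threonine phosphatases contig00435 and contig08775, which take phosphate off other proteins, differed in their flanks. Contig00435 was nearly flat outside the hump, between means of 8.07 and 8.37, and contig08775 was at 6.34 ± 0.38 at stage III and 7.75 ± 0.15 at stage VI. Contig18299, an anthocyanidin 3-O-glucosyltransferase, which adds glucose to flavonoid pigments, was at 5.80 ± 0.33 at stage IV and 5.84 ± 0.30 at stage V, and it was well above background only at these stages. Of the other 4, contig03706 is annotated as an uncharacterized membrane protein, contig00356 as a nuclear pore membrane glycoprotein, contig00004 as a conserved hypothetical protein and contig00195 only as a protein.

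The 16 pathway lists held 1209 contigs of the array, and 3 of them were members. That is 0.248% of the listed contigs, beside 0.756% of all contigs. The members were contig03391 on the list of starch and sucrose metabolism (1 of 218), contig04280 on fatty acid degradation (1 of 77) and contig07045 on oxidative phosphorylation (1 of 88). The other 13 lists, among them fatty acid, flavonoid, phenylpropanoid and terpenoid backbone biosynthesis and glycerolipid metabolism, had no member, though 4 of them held a contig that passed the score of 1 below the 150 highest. The median scores of the lists ran from -1.86 for flavonoid biosynthesis to -0.16 for carotenoid biosynthesis, beside -0.87 over all contigs.

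The members were also compared for features that the rule did not use. The contigs were 102 to 2557 bases long with a median of 594, beside 563 over all contigs. The brightest probe was in the sense direction in 85 members (56.7%), beside 61.3% of all contigs. Directions refer to the contig as assembled, so they do not give the strand of the gene. In contig number, 10 pairs of members lay 1 or 2 apart, and the correlation of a pair over the 21 seed arrays, which share the stages, ran from 0.75 for contig15390 and contig15391 to 0.99 for contig13514 and contig13516. Whether such neighbours are parts of 1 transcript was not tested, so they are not counted as separate evidence of the hump.

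Some neighbours parted in leaf. Contig14426 had means of 9.30 and 9.41 at stages IV and V and of 9.89 ± 0.51 in leaf (n = 10), which was 0.54 above its hump. Contig14427 had means of 13.74 and 13.61 at stages IV and V and of 5.24 ± 0.78 in leaf, a difference of -8.44 from its hump.

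The rule did not use the other probes of the member contigs. In the same direction as the chosen probe, 86 further probes on 59 contigs had a median score of 0.87, and 39 of them had a score of at least 1. Among the 10 highest annotated members, the score was 0.72 in contig04280, 0.13 in contig02977, 0.20 in contig04581, 0.95 in contig03624 and 0.94 in contig00195. It was 0.03, 0.53 and 1.95 in contig04356, 0.32 and 1.01 in contig03169, and 1.47 and 1.24 in contig01208. Contig07145 and contig07944 had no such probe. In the opposite direction, 208 probes on 117 contigs had a median score of -0.04, and 22 reached 1. Of the 38004 further probes of all contigs, 0.5% reached 1. The mean of stages IV and V had a median of 7.81 over the same-direction probes and 4.69 over the opposite ones.

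The score was also taken on single slides, from the same values that chose the members, so it describes how evenly the slides carry the hump and is no separate evidence of it. With 1 array a stage, the members all had a score above 0 on slides 2 and 3, and all but 1 did on slide 1. A score of at least 1 was reached by 122, 127 and 136, beside 0.968%, 1.32% and 1.01% of all contigs. In scores recomputed from the scanner intensities, 146 of the 150 reached 1, and the exceptions were contig07526, contig19230, contig12740 and contig05525, with scores of 0.92, 0.95, 0.81 and 0.79. The scanner intensities are of the same arrays that chose the members, so these scores are no separate evidence either. The brightest probe was picked anew there and may differ from the probe in the deposited table. A total of 147 members were well above background on all 7 arrays of stages IV and V, where they were chosen to be high. Nothing is read from this count of members. The other 3 were contig03799, contig07526 and contig12740, and contig07526 was well above background on 2 arrays of stage IV and 1 of stage V, with 6.20, 4.49 and 4.97 at stage IV.

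**Figure D3:**
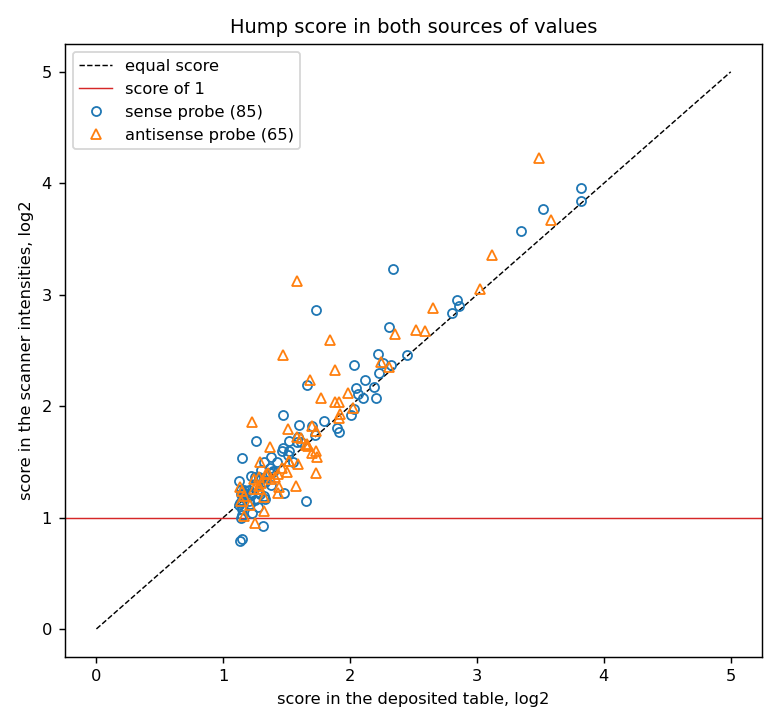
Hump score of the 150 contigs in the deposited table (horizontal axis, log2) against the score from the scanner intensities (vertical axis, log2), with circles for sense and triangles for antisense probes. The marked direction is that of the probe chosen in the deposited table. The dashed line marks equal scores and the red line a score of 1, and 146 points lie on or above the red line.

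Leaf was not used by the rule. The seed and leaf columns of the deposited table had different distributions and may have been normalized separately, so levels set across them are descriptions. The median of the members in leaf was 5.36, and the median of their mean over stages IV and V was 9.17. Taken contig by contig, leaf minus hump had a median of -2.98 over the members and 0.07 over all contigs. All 10 leaf arrays lay below the 7 hump arrays in 120 members, beside 21.1% of all contigs, and above them in 4 members, beside 24.1%. In the other 26 they overlapped. The seed side of this comparison was chosen to be high. With scanner intensities quantile normalized over all 31 arrays, the 2 counts were 112 and 2.

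**Figure D4:**
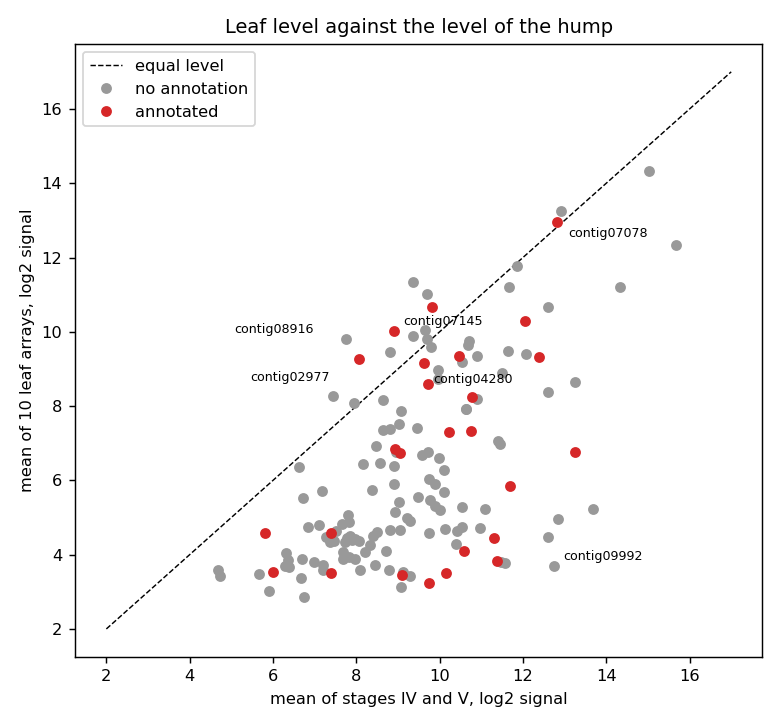
Mean of the 10 leaf arrays (vertical axis, log2 signal) against the mean of stages IV and V (horizontal axis, log2 signal) for the 150 contigs, with annotated contigs in red and the dashed line at equal level. Most points lie below the line, and 14 lie above it, contig08916 by 2.06.

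Relative to the flanks of the hump, 84 members were more than 1 lower in leaf than at their highest flanking stage, 43 were within 1 of it and 23 were more than 1 higher. No leaf array was well above background for 37 members, and all 10 were for 61. Neither set of counts was taken over all contigs, so no trait of the members is read from them. Contig09992 had a high hump and no detected leaf signal. It was 12.26, 12.45 and 12.27 at stage IV and 13.28, 13.34, 13.00 and 13.03 at stage V, while its leaf arrays lay between 2.85 and 4.33 and none was well above background. In contig08916 leaf was above the hump. It was 7.16, 7.93 and 7.29 at stage IV, 8.18, 8.23, 7.94 and 7.86 at stage V, and between 9.53 and 10.11 in leaf. Neither contig is annotated here.

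The 5 members brightest in leaf were contig03897, contig08797, contig07078, contig06270 and contig12765, with leaf means of 14.33, 13.25, 12.95, 12.33 and 11.78. Their leaf SDs were 0.75, 0.34, 0.37, 0.91 and 0.55 over 10 arrays. Signals of different probes do not rank transcripts, so no order is read from them. In contig06270 the hump stood at 15.61, 15.69 and 15.47 at stage IV and 15.71, 15.66, 15.75 and 15.99 at stage V, and all leaf arrays were below it, at up to 13.77. In contig03897 the means were 14.68 and 15.38, and leaf, between 13.38 and 15.71, overlapped the hump.

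Toxic and non-toxic leaf were compared to ask whether the members differ between the kinds of plant. With limma on scanner intensities, and Benjamini-Hochberg adjustment over all 57842 probes, no member and no probe at all (0%) was past the threshold of 0.05. At an unadjusted p under 0.05 there were 3 members (2%), beside 1.88% of all probes. The largest difference of these 3, in contig16522, was 2.39 with an SE of 0.98, and that contig was not well above background in non-toxic leaf. The median difference over the members was 0.04, and the smallest adjusted p among them was 1. Contig04280 was higher in toxic leaf by 1.09 with an SE of 0.77, and contig07145 by 0.52 with an SE of 0.52, and both had an adjusted p of 1 by limma.

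Stages V and IV were compared to ask on which side of the hump the peak lay. Differences are from scanner intensities, where positive means higher at stage V. The rule used both means, but not the direction of their difference. The score took the smaller mean from the same arrays, so the choice of members may affect how many are called. Shares of all probes and contigs are therefore given only for scale. Of the 150 members, 9 (6%) were higher and 1 (0.667%) was lower at stage V past the same threshold by limma, beside 2.33% and 3.1% of all probes, or 4.45% and 5.07% of the contigs by their brightest probe. In either direction 5.44% of all probes passed. The median difference was 0.41 over the members and 0.03 over all probes, and 110 members had a positive difference. In the deposited table the mean was higher at stage V in 71.3% of the members and in 52.7% of all contigs.

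The member that fell was contig04658, without annotation. In the deposited table it was 9.08, 9.15 and 8.83 at stage III, 14.18, 13.97 and 14.06 at stage IV, 11.44, 11.85, 11.46 and 11.67 at stage V and 7.15, 7.72, 7.71 and 7.69 at stage VI. Yellow and brown fruit did not overlap. The difference was -2.43 with an SE of 0.39 and an adjusted p of 0.0012 by limma, and it was -2.81, -2.16 and -2.64 within slides 1, 2 and 3. With all 31 arrays in the fit it did not pass (limma, adjusted p = 0.11).

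The 3 largest rises were in contig03169, contig05002 and contig20310. The amine oxidase contig03169, with the array values given above, rose by 2.12 with an SE of 0.44 (limma, adjusted p = 0.0074). Contig05002 was 7.89, 8.14 and 8.18 at stage IV and 9.90, 9.83, 9.86 and 9.38 at stage V, and rose by 1.96 with an SE of 0.40 (limma, adjusted p = 0.0068). Contig20310 was 8.24, 8.60 and 8.49 at stage IV and 10.10, 10.11, 9.95 and 9.78 at stage V, and rose by 1.75 with an SE of 0.41 (limma, adjusted p = 0.016).

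The groups did not overlap in any of these 3. The inorganic diphosphatase contig07045 also rose, by 1.04 with an SE of 0.21 (limma, adjusted p = 0.0060), and so did contig03897, by 0.65 with an SE of 0.18 (limma, adjusted p = 0.045). All 10 called members had the same sign within each of slides 1, 2 and 3. The calls used the same arrays, so this is no separate evidence. With slide as a block 20 members passed, 17 higher and 3 lower, beside 1737 and 2110 of the 19838 contigs by their brightest probe. Without slide 4 there were 19. Without stage IV replicate 1, 2 or 3 the count was 4, 5 or 4, and contig20310 was lost each time, with an adjusted p of 0.083, 0.052 and 0.051 by limma.

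Stages VI and III were compared to ask whether the signal after the hump differed from that before it. The rule held both below the hump, but did not set their order. Since it limited both levels on the same arrays, the shares of all probes and contigs are again only for scale. Of the 150 members, 40 (26.7%) were lower and 7 (4.67%) were higher in dry seed past the threshold, beside 12.7% and 17.1% of all probes, or 18.5% and 24.2% of the contigs by their brightest probe. In either direction 29.8% of all probes passed. The median difference was -0.17 over the members and 0.01 over all probes.

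The largest falls were in contig21861, contig16269 and contig13514. Contig21861 was 6.93, 6.87 and 6.85 at stage III and 3.22, 2.69, 3.10 and 3.57 at stage VI. All of its stage VI arrays failed to stand well above background, so its level was at least 8.16-fold lower than at stage III (limma, adjusted p = 3.9e-07), with scanner means of 6.94 and 2.45. Contig16269 was 8.48, 8.50 and 8.74 at stage III and 4.71, 4.31, 4.36 and 5.49 at stage VI, and fell by 4.23 with an SE of 0.48 (limma, adjusted p = 2.2e-06).

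Contig13514 was 7.69, 7.96 and 7.91 at stage III and 4.47, 2.94, 4.59 and 5.17 at stage VI, and fell by 3.97 with an SE of 0.69 (limma, adjusted p = 0.00022). In all 3 the stages did not overlap. On stage VI, 1 of 4 arrays was well above background for contig16269 and for contig13514. Among the annotated members, contig01876, contig04581 and contig00880 fell, by 2.86, 1.98 and 0.87 (limma, adjusted p = 2.5e-07, 0.0013 and 0.046).

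The largest fitted rises were in contig13603, contig02634 and contig08775. Contig13603 was 4.94, 5.86 and 5.07 at stage III and 7.07, 5.91, 6.72 and 6.84 at stage VI. It was not well above background at stage III, so it was at least 3.56-fold higher in dry seed (limma, adjusted p = 0.010), with scanner means of 6.67 and 4.81. The phosphatase contig08775 was 6.20, 6.76 and 6.04 at stage III and 7.90, 7.86, 7.59 and 7.66 at stage VI, and rose by 1.71 with an SE of 0.34 (limma, adjusted p = 0.00069).

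Contig02634 was less certain. It was 4.85, 3.41 and 3.74 at stage III and 4.84, 5.32, 4.05 and 5.46 at stage VI, so its stages overlapped, and no stage III array was well above background. It was called by limma (adjusted p = 0.018), but against an undetected level no fold is given. The call was lost in the deposited table with and without slide as a block, with normexp, with 75th percentile scaling, with all 31 arrays in the fit and without stage III replicate 2 or 3, where the adjusted p by limma ran from 0.051 to 0.21. Contig01665 and contig07045 also rose, by 1.14 and 0.58 (limma, adjusted p = 0.0040 and 0.048). Of the 47 called members, 46, 47 and 47 had the same sign within slides 1, 2 and 3. These signs come from the arrays that gave the calls and are no separate evidence.

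**Figure D5:**
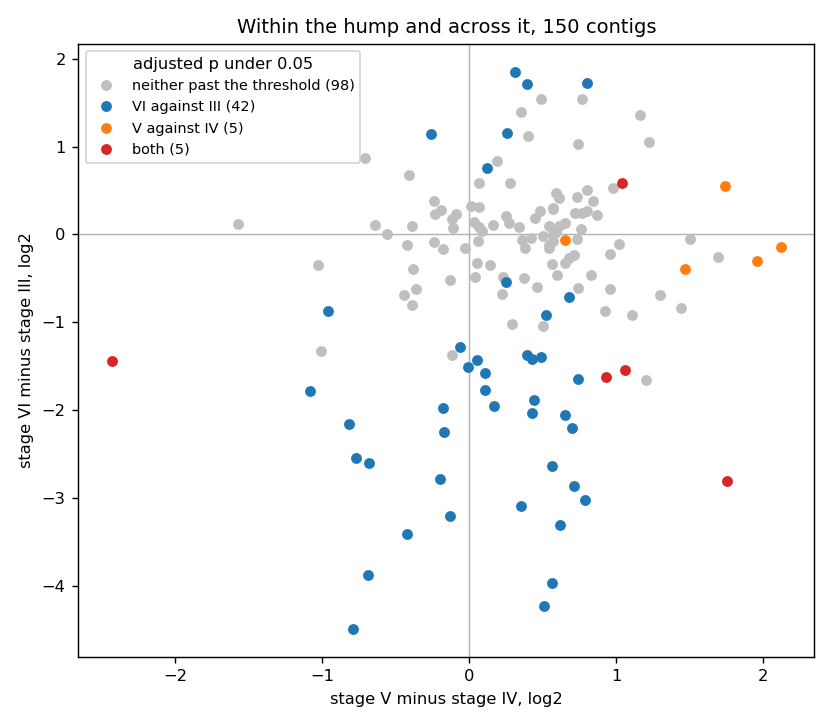
Difference between stages V and IV (horizontal axis, log2) against that between stages VI and III (vertical axis, log2) for the 150 contigs from scanner intensities, coloured by which of the 2 comparisons passed an adjusted p of 0.05. The comparison of stages VI and III alone passed for 42 contigs, that of stages V and IV alone for 5, both for 5 and neither for 98.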

How the data were processed

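RNA was labelled with cyanine-3 and hybridized to 31 Agilent 8x60K arrays with probes tiled along the contigs in both directions. The authors deposited each array's scanner output, read with Agilent Feature Extraction 10.5.1.1 per the submitters' processing notes. The deposited intensity values are linear spot brightness from which the scanner software had subtracted a spatially detrended background, and arrays were not scaled to each other. The authors' own log2 table, 1 value a probe, was made by the steps their methods give: replicate spots averaged, missing values filled from neighbouring probes, then quantile normalization, with no slide term named. In it the seed and the leaf columns had different distributions. The table was used for the rule, the levels and the leaf comparison.

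For the tests, controls and spots with the scanner's outlier marks were removed (42 to 461 per array). Replicate spots were averaged, log2-transformed, imputed from the 10 nearest probes, and quantile normalized over the seed or the leaf arrays. Tests used limma 3.58.1 in R 4.3.3 with a mean per group and no slide term, adjusted by Benjamini-Hochberg over 57842 probes, at an adjusted p of 0.05. The scripts were tested on simulated data. A bound sets the bright group's mean against, per array, the higher of the dim probe's signal and the lowest signal well above background. The normexp alternative used the median in place of the mean signal. The number of arrays limits the precision.

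The members, the gene lists and the comparisons were chosen with earlier results of these data known. Contigs named singly were the 10 highest scores, the 10 highest annotated, members on a pathway list, 3 on each side of the limit, the 5 brightest in leaf, and the 3 largest called differences in each direction. Annotation came from the supplementary tables, of which some cells were cut short, and RefSeq symbols from assembly XTBG_Jcur_1.0, matched by the accession in those tables (protein matches at 95% identity or more). The slide is a batch. Replicate numbers were given here in accession order and mark no shared sample. Numbers 1 to 3 of each group fall on slides 1 to 3, so slide was run as a block and within each slide.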

Additional observations from a re-analysis of the deposited data

Results flagged for a closer look

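For the 37 contigs named singly, 185 groups of 4 or 5 arrays were searched for an array far from the others, by the gap to its nearest neighbour as a share of the group's range. In 10 groups (5.41%) the share passed Dixon's limit, beside about 1 in 20 by chance. Stage V replicate 4, on slide 4, was the lowest brown array in 4 of them, at 8.99 in contig00195 (share 0.929), 9.99 in contig03234 (0.976), 9.38 in contig05002 (0.857) and 8.78 in contig07944 (0.858). It was the lowest stage V array in 98 of the 150 members, by a median of 0.25 below the others, and the part of slide 4 in this was not tested.

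Stage VI held 3 more. Contig04658 was 7.15 on replicate 1 and 7.69 to 7.72 on the others (share 0.954), contig07078 was 11.43 on replicate 2 and at most 10.85 on the others (0.866), and contig08797 was 10.18 on replicate 2 and at least 10.57 on the others (0.840). At stage II, contig01208 was 9.21 on replicate 1 and at least 9.72 on the others (0.901). Non-toxic leaf replicate 1 was low in contig04581, at 2.92 (0.715), and high in contig04658, at 5.53 (0.785).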

How the results depend on the processing

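Of the 150 members, between 101 and 149 kept a score of at least 1 under other scalings, background corrections, filters and the removal of slide 4. The count was 72 with the mean over all probes of a contig and 93 with the brightest sense probe, where contig12176 turned to -0.94. Leaving out 1 seed array gave 144 to 150. The median of leaf minus hump was -3.75 with all 31 arrays normalized together and -1.64 with the mean over all probes, and -3.06 to -2.90 without 1 array. For stage V against IV, the 10 members called became 28 in the deposited table, 32 with normexp, 20 with slide as a block (replicate block), 26 with that block in the deposited table (added after seeing the data), 19 without slide 4, 6 with 75th percentile scaling and 3 with all 31 arrays in the fit, where contig04658 was lost (adjusted p = 0.11 by limma). It was 4 to 8 without 1 array. Over all probes the 3144 calls became 8241 in the deposited table, 6757 with the block, 6132 without slide 4 and 2032 with all 31 arrays. They became 4546 with normexp, 7025 with the block in the deposited table and 2298 with 75th percentile scaling. Without 1 array they were 1704 to 2759. For stage VI against III, the 47 calls were 34 to 60 under the other settings and 37 to 46 without 1 array. Over all probes the 17245 calls were 14553 to 22128 and 15069 to 16633. At an adjusted p of 1e-08, the methods' threshold, 0 members passed either comparison with limma, beside 0 and 282 of all 57842 probes. At an unadjusted p under 0.05 there were 31 (20.7%) and 59 (39.3%) members, beside 16.4% and 38.7% of all probes. Contig02634 lost its call under the settings given with it above, of which 75th percentile scaling shifted the median of all probes by -0.21 between stages VI and III. No member passed for toxic against non-toxic leaf under any setting, while 30 probes did without slide 4. The cause of these changes was not tested. Probes near background limit the flanks: 22 members were not well above background on any stage I array and 45 on any toxic leaf array.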
